A study of Mus musculus with 48 samples.

Results

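Apolipoproteins are the protein part of the particles that carry cholesterol and triglyceride in blood, and most of those made outside the gut come from hepatocytes. The mouse loci of 8 of them were followed here as 4 windows of the mm9 genome: *Apoa1*, *Apoc3*, *Apoa4* and *Apoa5* together (the *Apoa1* cluster) at chr9:46000001-46100000, *Apob* at chr12:7930001-8060000, *Apoe* and *Apoc1* together at chr7:20250001-20320000, and *Apoa2* at chr1:173130001-173180000. Every peak of histone H3 acetylated at lysine 27 (H3K27ac) that overlapped a window by at least 1 bp was taken, which gave 257 of the 620207 peaks in 24 peak lists. The windows were set by position, without a cutoff on acetylation, but earlier results of these data were known when the members were chosen. Of the 257 peaks, 98 were in liver lists, 89 in heart lists and 70 in forebrain lists, and after merging over lists they made 19 of 86181 elements.

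H3K27ac marks active promoters and enhancers and was measured by chromatin immunoprecipitation and sequencing in liver, heart and forebrain of CD-1 mice at E11.5, E14.5, E17.5, P0, P7, P21 and P56 (embryonic and postnatal days). Each H3K27ac library had a matching input library of sonicated DNA that was not immunoprecipitated. Except at P56, each library was made from the pooled tissue of more than 1 animal. Heart E11.5, forebrain E11.5 and forebrain P56 had 2 replicates, and the other 18 groups, all of liver included, had 1 library. The animals carried no stated transgene or treatment.

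The members differ in what they do. *Apoa1* encodes the main protein of high-density lipoprotein (HDL) and activates the enzyme that esterifies its cholesterol. *Apoc3* encodes an inhibitor of lipoprotein lipase, *Apoa5* a protein that lowers plasma triglyceride by favouring that lipase, and *Apoa4* a protein of intestinal and hepatic particles. *Apob* encodes the structural protein that very-low-density and low-density lipoproteins are built on. *Apoe* encodes the ligand through which remnant particles bind receptors of the LDL receptor family, and it is made by hepatocytes and also by astrocytes and macrophages. *Apoc1* encodes a small protein that slows the uptake and lipolysis of such particles, and *Apoa2* an abundant HDL protein. Fetal liver is also a blood-forming organ, with a large share of blood cells.

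Other genes lie beside the members. In the RefSeq table, *Sik3* precedes *Apoa1* and *Zpr1* and *Bud13* follow *Apoa5*. *Apoc4* precedes *Apoc1* and *Tomm40* follows *Apoe*. *Tomm40l* precedes *Apoa2* and *Fcer1g* follows it, and *Klhl29* and *Ldah* are the neighbours of *Apob*. No gene annotation of mm9 was used, so a peak is placed by its distance from the start of its window (the end with the lower coordinate) and is not assigned to a gene. For the same reason the tissues were not checked against their marker genes, and other lipoprotein genes were not counted.

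A RefSeq promoter, from 250 bases before to 50 bases after the gene's start, was found for 6 of the 8 members in the GRCm38.p6 table, and the first listed was used for each. One is shown per window, to give the sequence from which each locus is transcribed, and capitals mark the matches to 6 short motifs searched on both strands. The *Apoa1* promoter lies at chr9:46228380-46228679 (plus strand), that of *Apob* at chr12:7977427-7977726 (plus strand), that of *Apoe* at chr7:19699139-19699438 (minus strand) and that of *Apoa2* at chr1:171224804-171225103 (plus strand), all in GRCm38.p6, whose positions are not those of mm9.
Apoa1: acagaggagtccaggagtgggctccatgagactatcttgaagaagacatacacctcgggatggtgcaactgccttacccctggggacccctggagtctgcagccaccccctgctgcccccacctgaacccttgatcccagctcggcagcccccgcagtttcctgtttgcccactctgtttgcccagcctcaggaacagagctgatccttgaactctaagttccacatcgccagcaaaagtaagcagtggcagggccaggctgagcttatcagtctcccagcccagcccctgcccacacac
Apob: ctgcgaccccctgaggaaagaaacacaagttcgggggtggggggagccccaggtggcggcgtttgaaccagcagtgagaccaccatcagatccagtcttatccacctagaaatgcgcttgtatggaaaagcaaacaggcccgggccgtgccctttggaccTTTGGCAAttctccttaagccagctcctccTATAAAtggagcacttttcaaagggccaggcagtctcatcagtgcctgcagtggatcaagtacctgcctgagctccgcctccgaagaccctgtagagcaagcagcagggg
Apoe: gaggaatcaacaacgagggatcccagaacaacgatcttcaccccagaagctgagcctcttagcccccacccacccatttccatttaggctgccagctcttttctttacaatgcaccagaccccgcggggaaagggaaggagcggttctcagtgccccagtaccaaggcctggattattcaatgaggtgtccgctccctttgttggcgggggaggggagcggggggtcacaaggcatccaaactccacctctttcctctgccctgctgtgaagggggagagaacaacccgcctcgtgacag
Apoa2: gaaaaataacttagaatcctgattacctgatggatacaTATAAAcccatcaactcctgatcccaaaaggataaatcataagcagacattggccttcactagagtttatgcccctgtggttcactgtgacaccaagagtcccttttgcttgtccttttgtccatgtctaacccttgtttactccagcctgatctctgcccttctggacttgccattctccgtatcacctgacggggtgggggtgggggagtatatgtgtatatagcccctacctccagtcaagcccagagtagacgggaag
The TATA box letters TATAAA were present in the promoters of *Apoa5*, *Apob* and *Apoa2*, beginning 31, 60 and 212 bases before the start, and in 13.6% of 32851 promoters of the same length in the table. TTGCNNAA occurred in *Apob* alone, 90 bases before the start on the minus strand, and in 10.8% of all promoters. No member promoter held CAAAGTCC (1.42% of all promoters), GTTAAT (7.10%), GGGCGG (35.7%) or AGGTCA (16.3%). These letter matches describe the windows searched and do not show binding. Whether a peak covered these promoters was not measured, because the builds differ.

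The 24 H3K27ac libraries held 4108135 to 33394166 uniquely mapped reads and their lists 7376 to 39133 peaks. The list labelled heart P21 stands apart: it had the 7376 peaks, 1 of them in a window, while the input list labelled heart P21 had 23762 peaks. Of those input peaks, 92.0% overlapped a liver P7 peak and 4.97% a peak of the heart P21 H3K27ac list. The comparisons of window coverage and of bins between tissues are therefore given with and without the heart P21 list. The libraries carry names of 2 kinds in the headers, LPAN and IO: all 7 liver libraries are LPAN, heart is LPAN from E14.5 to P21, and forebrain is IO apart from P56 replicate 2. The share of a window under peaks (percent covered) was the main measure, over 21 lists with replicate 1 where there were 2. Libraries came from tissue, at P56 as well, so more cells with the mark and more marked sequence per cell cannot be told apart.

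The window of *Apoa1*, *Apoc3*, *Apoa4* and *Apoa5* was the most widely acetylated of the 4 in adult liver. In liver it was covered by 16.2% at E11.5, 5.88% at E14.5, 44.98% at E17.5, 26.5% at P0, 45.9% at P7, 64.4% at P21 and 81.3% at P56. In heart, replicate 1 gave 12.6% at E11.5, 10.7% at E14.5, 8.81% at E17.5, 18.2% at P0, 11.7% at P7, 5.64% at P21 and 18.0% at P56. Forebrain ranged over 7 stages between 1.39% at P21 and 5.61% at P56. Liver was above both other tissues at 6 of 7 stages, the exception being E14.5, and the replicates of heart E11.5 (12.6% and 10.4%), forebrain E11.5 (3.74% and 3.20%) and forebrain P56 (5.61% and 6.09%) lay close together. At E14.5 the liver list held 12474 peaks and the heart list 31815. Per megabase that each E14.5 list covered, the cluster held 119 bases in liver, 104 in heart and 46.5 in forebrain. That scale was chosen after the data were seen.

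Averaged over the 7 stages, liver covered 40.7% of this cluster and the other tissues 7.98%, a difference of 32.8 percentage points (two-sided exact permutation of tissue within stage, p = 0.00137, 2187 relabellings). Without the heart P21 list the difference was 33.1 points (exact permutation p = 0.00206), and without stage P21 it was 28.1 points (exact permutation p = 0.00412). The rank percentile of the best peak in the cluster averaged 77.5 in liver and 73.1 in the other tissues, which did not pass the test (exact permutation p = 0.660). At the 5 stages where liver and heart libraries are both LPAN, liver exceeded heart by 26.5 points (exact permutation p = 0.125, where 0.0625 is the smallest possible). Without P21 that within-series difference was 18.5 points (exact permutation p = 0.25). Forebrain shares a series with liver only in P56 replicate 2, where liver covered 81.3% and forebrain 6.09% of the cluster (1 library each, no test). Elsewhere series and tissue cannot be told apart between liver and forebrain.

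**Figure D1:**
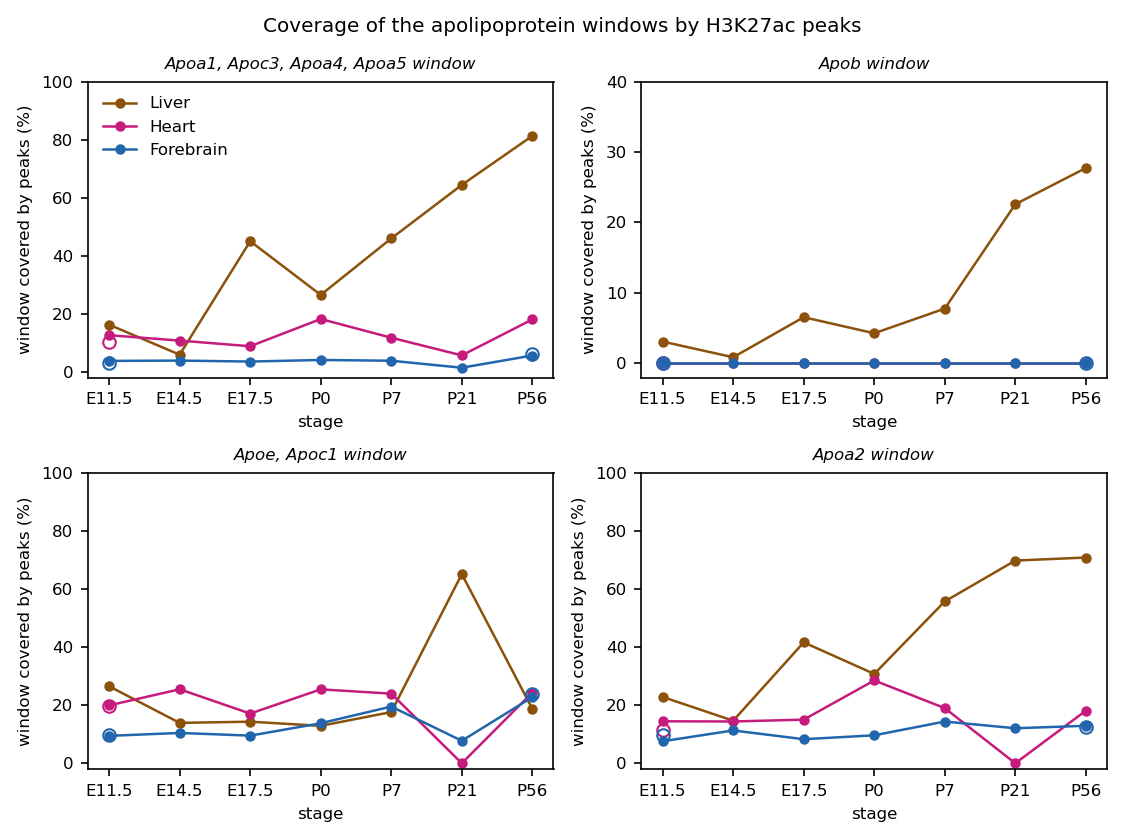
Percent of each window covered by H3K27ac peaks (vertical axis) at each stage (horizontal axis), in liver (brown), heart (magenta) and forebrain (blue); filled points are replicate 1, open circles replicate 2, and the vertical scale of the Apob panel is shorter. Liver reached 81.3% of the Apoa1, Apoc3, Apoa4, Apoa5 window at P56, the Apob window was at 0 in all heart and forebrain lists, and the liver value of the Apoe, Apoc1 window stood apart at P21 with 65.2%.

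Inside the cluster the tissues marked different stretches. Near the window's start, heart had a peak between 1.03 and 10.8 kb at all 7 stages, from 3.97 to 7.19 kb at E11.5 and from 1.03 to 9.97 kb at P56. It was the only member peak of the heart P21 list (3.10 to 8.74 kb). In the first 10 kb, heart covered 32.2% to 89.4% over its 7 stages and liver 0 to 89.0%, with no liver coverage at E11.5, E14.5 and P0. Forebrain had coverage there only at P56, in both replicates (6.02 to 7.72 kb and 4.97 to 7.32 kb). This heart and liver stretch belongs to the element at chr9:46001032-46019010, marked in 16 of 24 lists.

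The next 2 elements held most of the liver signal. The element at chr9:46020120-46057630 was marked in 21 lists. In liver it held 3 separate peaks at E11.5 (22.1 to 26.7, 35.6 to 39.4 and 42.8 to 44.4 kb) and 1 at E14.5 (22.8 to 26.2 kb). At E17.5 a peak of 20.8 kb (28.9 to 49.6 kb) stood beside one of 6.13 kb. At P56 it was 1 peak of 37.5 kb, from 20.1 to 57.6 kb. Forebrain had a short peak of 1.64 to 2.46 kb near 37 to 39 kb in the same element at every stage other than P21. Heart had one at E11.5, E14.5 and P0 (1.30 to 1.63 kb, both E11.5 replicates included). Heart also had a peak of 1.74 to 3.21 kb near 22 to 25 kb at E11.5 (replicate 1 alone), P0, P7 and P56. At E11.5 both heart replicates had a further peak near 51 to 53 kb (1.55 and 1.72 kb). The stretch from 40 to 50 kb was covered in 6 of 7 liver lists, up to 100% at P21 and P56, and in no heart or forebrain list.

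The element at chr9:46060458-46083662 was marked in 13 lists, in liver and heart but in no forebrain list. Heart had 1.66 to 2.34 kb near 65 to 67 kb at 6 of 7 stages, whereas the liver P56 peak was 23.2 kb wide. The stretch from 70 to 80 kb was covered in liver by 0% at E11.5, 0% at E14.5, 22.6% at E17.5, 38.9% at P0, 50.4% at P7, 62.2% at P21 and 100% at P56, and by 0% in all heart and forebrain lists. The last named element, chr9:46089826-46092635, was shared: it was marked in 23 of 24 lists, the heart P21 list being without it, with peaks of 1.39 to 2.76 kb. An element at chr9:45994858-46000624 reached into the window at heart P0, heart P7 and forebrain P56 replicate 1 (by 0.004 kb). In forebrain P56 replicate 2 its peak stayed outside the window. A single heart P56 peak lay at 85.2 to 86.7 kb.

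**Figure D2:**
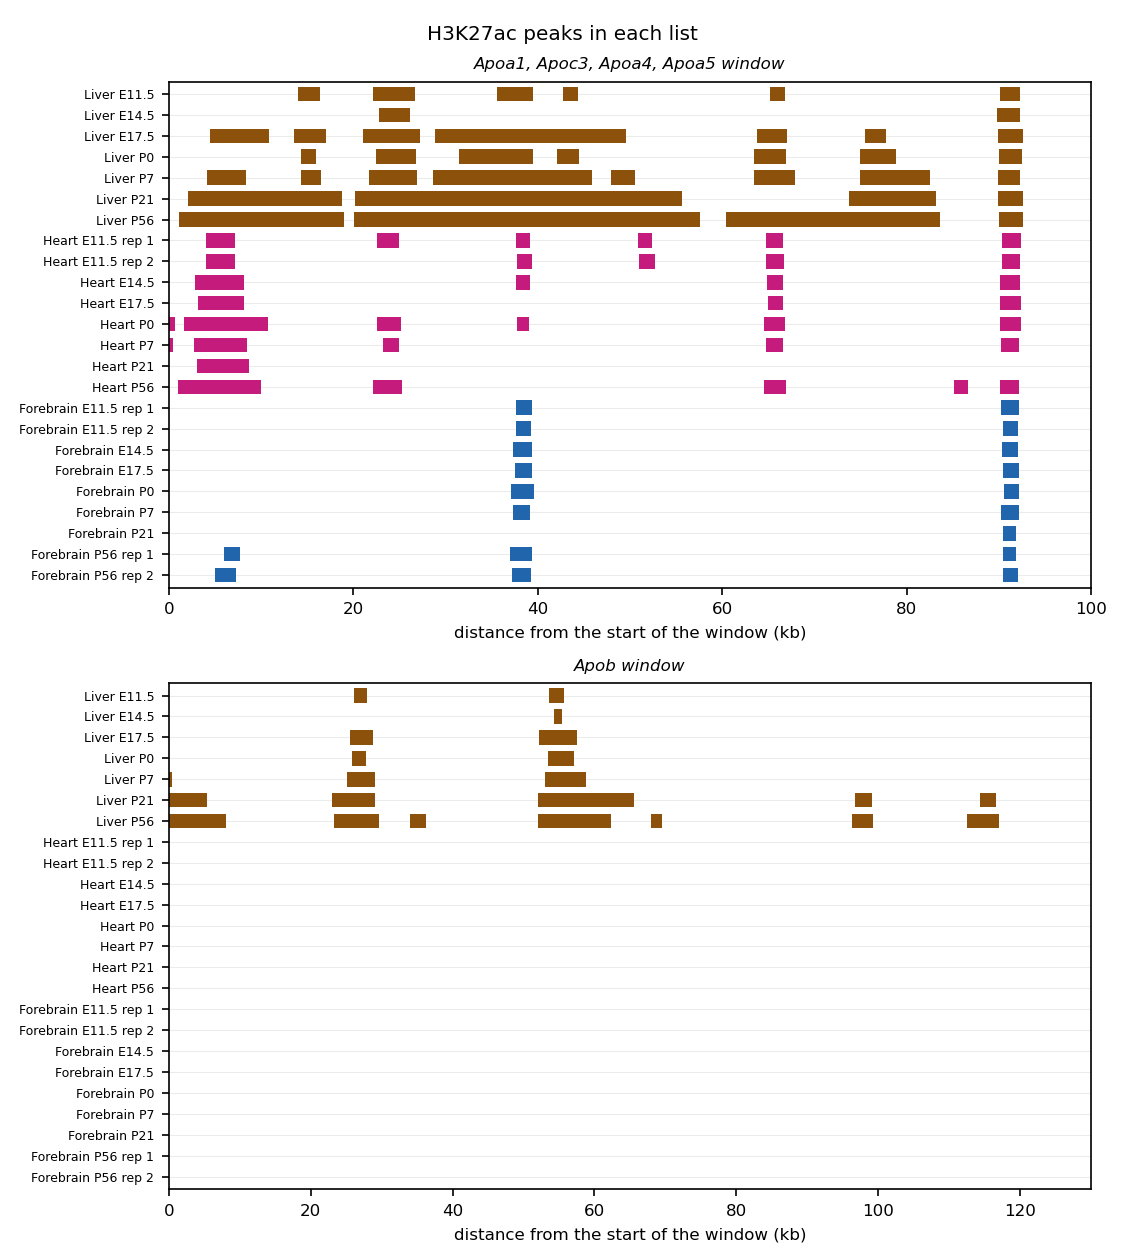
Position of each H3K27ac peak (bars, cut at the window edges) along the Apoa1, Apoc3, Apoa4, Apoa5 window and the Apob window (horizontal axis, kb from the window's start), with 1 row per list from liver (brown) to heart (magenta) and forebrain (blue). Liver peaks joined into 3 wide peaks and 1 narrow one at P56 in the upper window, and the lower window held liver peaks alone.

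The *Apob* window was marked in liver only among these lists. Its 22 peaks were all in liver lists, and all 17 heart and forebrain lists, replicates included, had none. Liver covered 3.11% at E11.5, 0.882% at E14.5, 6.57% at E17.5, 4.28% at P0, 7.79% at P7, 22.6% at P21 and 27.7% at P56. P21 and P56 were the high lists and E14.5 the low one. The mean over stages was 10.4% in liver and 0% in the other tissues, a difference of 10.4 points (exact permutation p = 0.000457, the smallest that 2187 relabellings can give). It was also 10.4 points without the heart P21 list (exact permutation p = 0.000686). Liver against heart within the LPAN series gave 8.42 points (exact permutation p = 0.0625, the smallest possible), and 4.88 points without P21 (exact permutation p = 0.125, also the smallest possible).

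The *Apob* elements appeared at different stages. The element at chr12:7982075-7995520 was marked in all 7 liver lists, as 2.20 kb at E11.5, 1.15 kb at E14.5 and 13.4 kb at P21. Its best-ranked peak was at P56, where it was the 676th of 30611 by the authors' rank. Presence in all liver and no other list gave an unadjusted exact permutation p of 0.000457 for this element and an adjusted p of 0.157 over 85254 elements. The element at chr12:7953032-7959628 was marked in 6 liver lists, E14.5 being the exception, with 1.84 kb at E11.5 and 6.38 kb at P56. The element at chr12:7911833-7938094 was marked in 5 liver lists from E17.5 on, and reached into the window at P7 (by 0.387 kb), P21 and P56. The other 4 elements were marked in 1 or 2 lists, all of them liver P21 or P56.

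The *Apoa2* window differed from *Apob* in that every tissue marked it, and liver marked more of it. Liver covered 22.9% at E11.5, 14.7% at E14.5, 41.7% at E17.5, 30.8% at P0, 55.8% at P7, 69.8% at P21 and 70.9% at P56. Heart replicate 1 covered 14.46% at E11.5, 14.4% at E14.5, 15.03% at E17.5, 28.5% at P0, 19.0% at P7, 0% at P21 and 18.1% at P56. Forebrain ranged between 7.59% at E11.5 and 14.4% at P7. Liver was the highest at 7 of 7 stages, although at E14.5 and P0 it was close to heart.

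Over the stages liver averaged 43.8% of the *Apoa2* window and the other tissues 13.3%, a difference of 30.5 points (exact permutation p = 0.000457, the smallest possible). It was 29.6 points without the heart P21 list (exact permutation p = 0.000686) and 27.1 points against heart within the LPAN series (exact permutation p = 0.0625, the smallest possible). Without P21 the difference within the series was 16.5 points (exact permutation p = 0.125, the smallest possible). The rank percentile of liver's best peak was above both other tissues at 2 of 7 stages, and its mean difference of 8.32 points did not pass the test (exact permutation p = 0.471). With peaks trimmed to 1 kb the difference in coverage was 0.950 points (exact permutation p = 0.203). The number of peaks did not separate the tissues (2.57 per list in liver and 2.14 in the others, exact permutation p = 0.416).

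Both main *Apoa2* elements were marked in 23 of 24 lists, the heart P21 list being the exception, and their widths differed between tissues. The element at chr1:173140341-173171992 held a heart peak of 2.67 to 4.69 kb and a forebrain peak of 1.76 to 2.88 kb near 21 to 25 kb. In liver it was 6.33 kb at that place at E11.5, with a separate peak of 2.08 kb at 32.9 to 34.95 kb, and it was a single peak of 30.6 kb at P21 and 31.1 kb at P56. Heart had further peaks in this element at P0 (31.6 to 34.9 and 39.1 to 41.4 kb) and P7 (39.45 to 40.9 kb). Between 30 and 40 kb, P0 coverage was 41.5% in heart and 47.9% in liver. The stretch from 10 to 20 kb was covered by 52.1% at P7, 86.5% at P21 and 96.6% at P56 in liver, by 0% at the 4 earlier liver stages and by 0% in all heart and forebrain lists. The element at chr1:173175356-173183999, at the window's end, had peaks in all tissues. The 1 remaining element was a heart P0 peak at 4.14 to 5.17 kb.

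The *Apoe* and *Apoc1* window did not follow the other 3. Liver covered 26.5% at E11.5, 13.9% at E14.5, 14.3% at E17.5, 12.9% at P0, 17.6% at P7, 65.2% at P21 and 18.7% at P56. Heart replicate 1 covered 19.9% at E11.5, 25.5% at E14.5, 17.1% at E17.5, 25.5% at P0, 23.99% at P7, 0% at P21 and 24.4% at P56. Forebrain replicate 1 covered 9.45% at E11.5, 10.4% at E14.5, 9.53% at E17.5, 13.8% at P0, 19.5% at P7, 7.75% at P21 and 22.8% at P56. Liver was above both other tissues at 2 of 7 stages, E11.5 and P21, and the tissues overlapped otherwise.

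The mean was 24.2% in liver and 16.4% in the other tissues, and the difference of 7.77 points did not pass the test (exact permutation p = 0.289), nor did the 7.21 points without the heart P21 list (exact permutation p = 0.647). Without stage P21 the mean was 17.3% in liver and 18.5% in the others, a difference of -1.16 points (exact permutation p = 0.708). Cutting every list to its 7376 best-ranked peaks gave 10.6 points, from 17.3% in liver and 6.71% in the others (exact permutation p = 0.00183), and cutting to 11871 without the heart P21 list 11.7 points (exact permutation p = 0.0165). Against heart within the LPAN series the difference was 6.38 points (exact permutation p = 1), and -8.32 points without P21 (exact permutation p = 0.125, the smallest possible).

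One stretch inside the *Apoe* and *Apoc1* window was marked in forebrain and heart and, at most stages, not in liver. Between 30 and 40 kb, liver was covered by 71.0% at E11.5, 11.2% at E14.5, 0% at E17.5, P0, P7 and P56, and 96.7% at P21. Heart had coverage there at 6 of 7 stages, at 36.8% to 61.9%, and forebrain at 7 of 7, at 16.1% to 61.5%. The liver mean was 25.6% and the mean of the other tissues 38.7%, a difference of -13.2 points that did not pass the test (exact permutation p = 0.402, adjusted p = 0.671). The liver peak at P21 was a single one of 40.8 kb, from -1.17 to 39.7 kb, the 32nd widest of the 27179 peaks in that list. It covered the stretch from 10 to 20 kb, which no other of the 21 lists marked. Liver P21 was also the liver library with the most uniquely mapped reads (21429854), and depth and stage cannot be told apart with 1 library a stage.

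All 3 elements of this window were marked in several tissues. The element at chr7:20248224-20289670, which holds the stretch above, and the element at chr7:20298856-20303005 were marked in 23 of 24 lists. The last element along the window, at chr7:20306697-20309396, was marked in 8 lists, at liver P7, P21 and P56 and at heart E11.5 (replicate 1), E14.5, P0, P7 and P56, and in no forebrain list. In the first 10 kb of the window liver was the higher tissue, with 61.1% in liver and 29.6% in the others (exact permutation, adjusted p = 0.0306). The liver peak there reached 6.42 kb from the window's start at E17.5 and 7.75 kb at P56. At E11.5 the first peak reached 2.40 kb and a separate one lay at 3.93 to 5.51 kb.

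**Figure D3:**
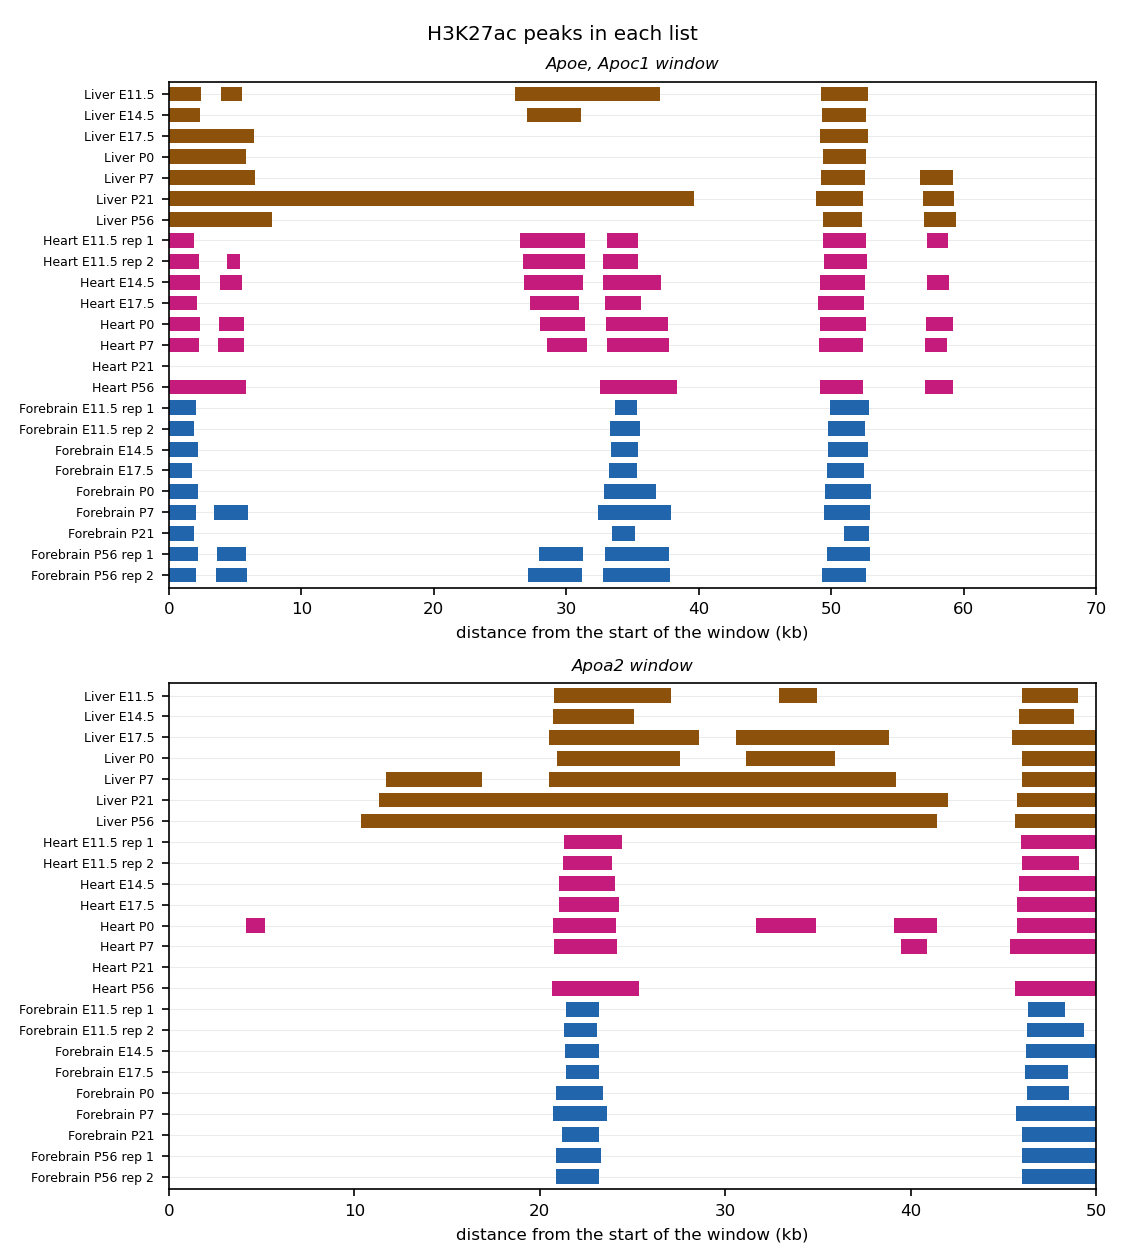
Position of each H3K27ac peak (bars, cut at the window edges) along the Apoe, Apoc1 window and the Apoa2 window (horizontal axis, kb from the window's start), with 1 row per list from liver (brown) to heart (magenta) and forebrain (blue). In the upper window the liver P21 peak runs on to 39.7 kb while liver has no peak between 30 and 40 kb at E17.5, P0, P7 and P56, and in the lower window the liver peak spans 10.3 to 41.4 kb at P56.

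Forebrain and heart were also compared in the *Apoe* and *Apoc1* window, since *Apoe* is active in both the brain and the periphery. Forebrain averaged 13.3% and heart 19.5%, a difference of -6.16 points (exact permutation p = 0.0938). At E11.5 and P56, where both libraries are IO, the difference was -6.04 points (exact permutation p = 0.5, the smallest possible). Forebrain was above heart at 1 of 7 stages, P21, where the heart list had no peak in the window. Without the heart P21 list the difference was -8.48 points, with 14.3% in forebrain and 22.7% in heart (exact permutation p = 0.0313, the smallest that 64 relabellings can give). At equal list lengths it was 1.01 points with the heart P21 list (exact permutation p = 0.5) and -1.26 points without it (exact permutation p = 0.313), and neither passed the test.

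Within forebrain the coverage of this window was higher at P56 than at E11.5. The 2 replicates at P56 gave 22.8% and 24.02%, and the 2 at E11.5 gave 9.45% and 9.89%, so the groups did not overlap. The difference was 13.7 points, with means of 23.4% at P56 and 9.67% at E11.5 (exact permutation p = 0.333, the smallest that 6 splits of 4 lists can give). At equal list lengths it was 4.44 points, from 11.4% at P56 and 6.93% at E11.5. P56 forebrain had a peak near 27 to 31 kb in both replicates (3.37 and 4.05 kb) that no other forebrain list had, and its peak near 33 to 38 kb was 4.86 and 5.02 kb wide, against 1.61 and 2.22 kb at E11.5. Forebrain P7 shared a peak near 3 to 6 kb (2.61 kb) with P56 (2.22 and 2.35 kb).

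After birth, liver covered more of the *Apoa1* cluster, *Apob* and *Apoa2* windows on average, but the stages on either side of birth overlapped. In the *Apoa1* cluster the postnatal liver lists averaged 54.5% ± 23.6 (SD over 4 stages) and the prenatal ones 22.4% ± 20.3 (SD over 3 stages), a difference of 32.2 points (exact permutation p = 0.114). In *Apob* they averaged 15.6% ± 11.3 and 3.52% ± 2.86, a difference of 12.1 points (exact permutation p = 0.171). In *Apoa2* they averaged 56.8% ± 18.7 and 26.4% ± 13.8, a difference of 30.4 points (exact permutation p = 0.0857). In *Apoe* and *Apoc1* they averaged 28.6% ± 24.5 and 18.3% ± 7.16, a difference of 10.4 points (exact permutation p = 0.8), which was -1.83 points without P21 (exact permutation p = 0.8).

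The smallest p that 35 splits can give is 0.0286, and in the *Apoa1* cluster, *Apob* and *Apoa2* windows the E17.5 list lay above the P0 list. Liver P0 was also the library with the fewest reads (4108135), against 16839827 at E17.5, and depth and stage cannot be told apart with 1 library a stage. As a share of everything the list covered, P0 stood higher in *Apoa2*, at 226 ppm (bases per megabase covered) against 191 ppm at E17.5. On that scale, chosen after the data were seen, *Apoa2* averaged 249 ppm in postnatal and 171 ppm in prenatal liver (exact permutation p = 0.0286, the smallest possible). The *Apoa1* cluster averaged 472 ppm in postnatal and 259 ppm in prenatal liver (exact permutation p = 0.143), and its stages overlapped, with 389 ppm at P0 and 411 ppm at E17.5. *Apob* averaged 168 ppm and 54.2 ppm (exact permutation p = 0.143), with at least 79.7 ppm at each postnatal and at most 78.1 ppm at each prenatal stage. The *Apoe* and *Apoc1* window averaged 174 ppm and 190 ppm (exact permutation p = 0.914).

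The change around birth was set against that in heart. Postnatal minus prenatal was 32.2 points in liver and 2.68 points in heart for the *Apoa1* cluster, and this difference between tissues was 29.5 points (exact permutation p = 0.143). For *Apob* it was 12.1 points (12.1 in liver and 0 in heart, exact permutation p = 0.171), and for *Apoa2* 28.6 points (30.4 in liver and 1.78 in heart, exact permutation p = 0.143). For *Apoe* and *Apoc1* it was 12.8 points (10.4 in liver and -2.39 in heart, exact permutation p = 0.914). Without the heart P21 list it was 23.6, 9.75, 18.8 and -5.59 points for the *Apoa1* cluster, *Apob*, *Apoa2* and the *Apoe* window, and none passed the test (exact permutation p = 0.3, 0.2, 0.3 and 0.4).

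The widest liver peaks of the *Apoa1* cluster, *Apob* and *Apoa2* windows were at P21 and P56. The widest liver peak of the *Apoa1* cluster was 4.55 kb at E11.5, 3.44 kb at E14.5, 20.8 kb at E17.5, 8.06 kb at P0, 17.3 kb at P7, 35.5 kb at P21 and 37.5 kb at P56. At P56 it ranked 66th of 30611 by width and 168th by the authors' rank. The widest *Apoa2* peak was 6.33 kb at E11.5, 4.37 kb at E14.5, 8.22 kb at E17.5, 6.59 kb at P0, 18.7 kb at P7, 30.6 kb at P21 and 31.1 kb at P56, the last ranking 123rd by width. The widest *Apob* peak was 2.20 kb at E11.5, 23.6 kb at P21 and 15.4 kb at P56. In the *Apoe* and *Apoc1* window it was 10.98 kb at E11.5, 40.8 kb at P21 and 8.93 kb at P56. The median width of all peaks in the liver lists stayed between 2.61 and 3.20 kb.

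**Figure D4:**
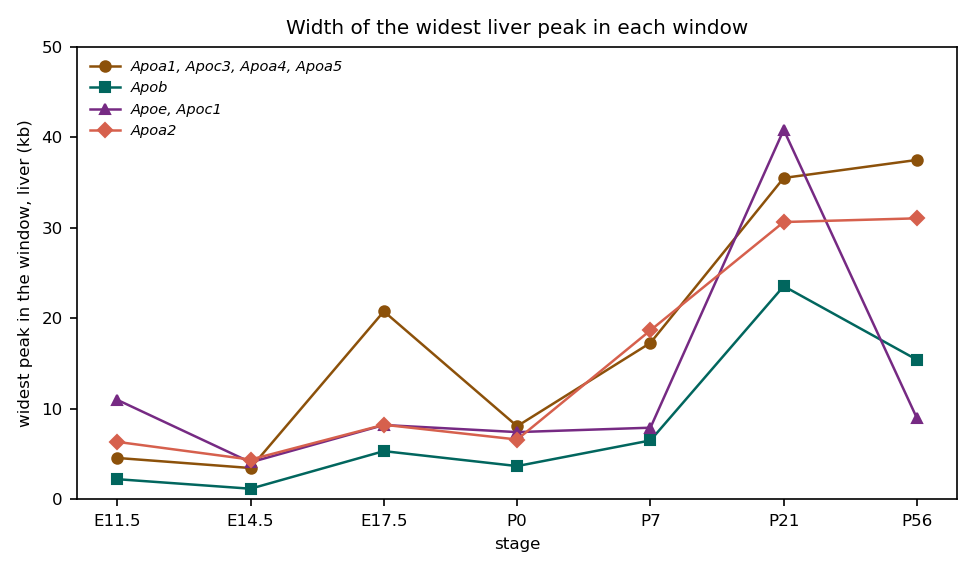
Width in kb of the widest liver H3K27ac peak that overlaps each window (vertical axis) at each stage (horizontal axis), with 1 library per stage. The Apoa1, Apoc3, Apoa4, Apoa5 and Apoa2 windows had their widest peaks at P56 (37.5 and 31.1 kb), and the Apob and Apoe, Apoc1 windows at P21 (23.6 and 40.8 kb).

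The windows were then placed among the rest of the genome, cut into bins of 10 kb and tested with the same exact permutation within stages. Of the 35 bins in the windows, 28 had a peak and were tested, and 12 of these (42.9%) were called higher in liver at a Benjamini-Hochberg adjusted p of 0.05 or less, against 7.87% of all 95736 bins tested. The called bins were 7 of 10 in the *Apoa1* cluster, 2 of 7 in *Apob*, 1 of 6 in *Apoe* and *Apoc1* and 2 of 5 in *Apoa2*. None was called lower in liver, against 983 of all 95736 bins, so a count of 0 among 28 does not set the windows apart. The median difference was 16.5 points over the member bins and -1.03 points over all bins. A bin was tested if any list had a peak in it, so some member bins, all 7 of *Apob* included, entered through liver alone. For those bins liver could only be the higher tissue. Wide peaks span several neighbouring bins, so the member bins are not independent, and the shares are given as a description. Without the heart P21 list 10 of 28 member bins were called, against 4.504% of all bins, and without stage P21 3 of 27, against 2.09%. At equal list lengths 2 of 24 member bins (8.33%) were called, near the 8.73% of all bins, and without the heart P21 list 6 of 25 (24%), against 8.86%.

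The largest of these differences were in the *Apoa1* cluster and *Apoa2*. The cluster's stretch from 30 to 40 kb was covered by 74.1% on average in liver and 11.9% in the other tissues, and that from 20 to 30 kb by 65.6% and 7.10%. In *Apoa2* the stretch from 30 to 40 kb was covered by 63.2% in liver and 3.36% in the others. In *Apob* the stretch from 50 to 60 kb was covered by 48.4% in liver and 0% in the others. Adjusted p-values (exact permutation, Benjamini-Hochberg) were 0.0306, 0.0217, 0.0306 and 0.0217 in that order. The shared peak at the end of the cluster was also called (90 to 100 kb, 24.5% in liver and 17.7% in the others, exact permutation, adjusted p = 0.0463), a difference of 6.78 points.

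**Figure D5:**
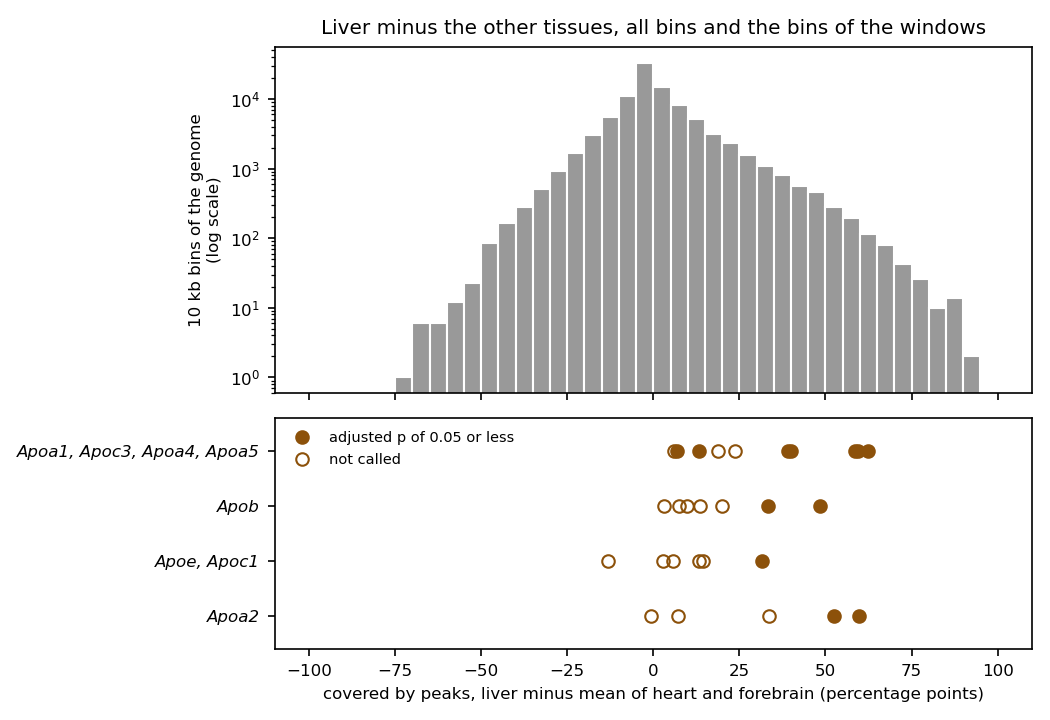
Upper panel: number of 10 kb bins of the genome (log scale) by liver minus the mean of heart and forebrain in percent of the bin covered. Lower panel: the 28 tested bins of the 4 windows on the same horizontal axis, filled where called higher in liver at an adjusted p of 0.05 or less (12 bins) and open otherwise.

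Few bins kept all stages on one side of birth. Among 27 member bins with a liver peak, 1 had every postnatal liver list above every prenatal one, against 3.8% of 54590 bins with a liver peak, and 0 had every postnatal list below, against 5.58%. The 1 bin was the stretch from 70 to 80 kb of the *Apoa1* cluster given above. Its share of the member bins, 3.70%, was near that of all bins. At equal list lengths it was 2 of 24 member bins, against 2.48% of all bins, and with lists cut to 11871 peaks 1 of 25, against 3.19%. The median of postnatal minus prenatal liver was 27.2 points over the member bins and 4.76 points over all bins with a liver peak. Some member bins had liver peaks at postnatal stages only, so their positive sign was set by the need for a liver peak. Neighbouring bins can also share a wide peak, and the medians were not tested.

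The *Apoa1* cluster, *Apoa2* and *Apob* windows varied alike over the 21 lists, which share libraries, depth and list length across the windows. Pearson's r of percent covered was 0.970 between the *Apoa1* cluster and *Apoa2*, 0.942 between the cluster and *Apob* and 0.911 between *Apob* and *Apoa2*. With the *Apoe* and *Apoc1* window it was 0.490 for the *Apoa1* cluster, 0.513 for *Apob* and 0.582 for *Apoa2*. Of 18701 other bins of 100 kb, the one most like the *Apoa1* cluster was chr4:40100001-40200000 (r = 0.988), followed by chr11:83600001-83700000 (r = 0.987) and chr1:138800001-138900000 (r = 0.984). For *Apob* they were chr3:130300001-130400000, chr17:80000001-80100000 and chr10:87000001-87100000 (r = 0.990, 0.990 and 0.989). For *Apoa2* they were chr13:12500001-12600000, chr2:10000001-10100000 and chr11:51500001-51600000 (r = 0.983, 0.980 and 0.979).

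The bins most like the *Apoe* and *Apoc1* window had their highest liver value at P21 too. They were chr10:74900001-75000000 (r = 0.898), chr16:10500001-10600000 (r = 0.857) and chr1:93700001-93800000 (r = 0.845), with 32.2%, 23.9% and 20.1% covered in liver at P21. All 9 bins named for the other windows had their highest liver value at P56. All these bins were picked for their likeness to a window over the same 21 lists. A shared stage of the highest liver value therefore largely follows from that choice and is not a separate result. These correlations describe the 21 lists and carry no test.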

How the data were processed

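H3K27ac and input libraries came from 3 tissues at 7 stages. The submitters' processing notes name BWA, MACS 1.4 and mm9, without parameters. The authors deposited 1 peak list per library with positions and the authors' rank of each peak, without scores; ranks were used within a list only. Read counts and peak counts per library come from the authors' deposited table. Headers and table write P1 and P20 where the labels have P0 and P21.

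Here the percent of a window or bin covered by peaks was computed. Tissue tests permuted tissue labels within stages, stage tests used all splits of the lists, and all were two-sided and exact. Bins of 10 kb were tested genome-wide with Benjamini-Hochberg adjustment, called at 0.05. A single library per tissue and stage leaves stage without replicates. The p-values between tissues come from relabelling tissues within each stage, with stages in the place of replicates. Those of postnatal against prenatal lists measure spread between stages. The test of forebrain P56 against E11.5 alone split replicate lists. Where labels name replicates, nothing says that they came from separate animals, so the spread may be technical. Lists hold presence only, so counting intervals are not given.

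Elements marked in at least 3 of 24 lists were named, at most 8 a window, with the 3 bins of 100 kb most like each window. Members and lists were chosen with earlier results of these data known. Coordinates are 1-based mm9, and promoters are from RefSeq on GRCm38.p6. Alternatives covered list length, peak width, replicates, P21, input peaks, peak number, rank, bin size and library series. Leaving out the heart P21 list or single stages, the share of covered sequence, leaving out P21 within a series, forebrain against heart within a series and a crossed replicate block were added after the data were seen. The bin test was checked on simulated data. Replicate numbers did not pair the samples (correlation of deviations -0.0455 between forebrain P56 and E11.5). The analysis used Python 3.11.15, numpy 2.4.6 and matplotlib 3.10.9.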

Additional observations from a re-analysis of the deposited data

Results flagged for a closer look

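The input list labelled heart P21 held peaks in every apolipoprotein window, which input DNA of the other lists did not. It covered 45.4% of the *Apoa1*, *Apoc3*, *Apoa4* and *Apoa5* window, 9.50% of the *Apob* window, 16.0% of the *Apoe* and *Apoc1* window and 30.8% of the *Apoa2* window. The H3K27ac list with the same label covered 5.64%, 0%, 0% and 0% of these windows in that order. The *Apob* window had no peak in any heart or forebrain H3K27ac list. Of the 23762 peaks of this input list, 92.0% overlapped a liver P7 H3K27ac peak, 88.5% a liver P21 peak and 89.1% a liver P56 peak, against 71.8% for heart P56, 69.4% for heart P7 and 4.97% for the H3K27ac list labelled heart P21. What tissue or treatment the library holds was not tested. It entered the tissue comparison in 1 alternative, which removed peaks overlapping a library's own input peaks. There the peak of the heart P21 H3K27ac list in the *Apoa1* cluster was removed, and liver minus the other tissues in that window was 33.2 points, from 40.7% in liver and 7.58% in the others (exact permutation p = 0.00137), against 32.8 points with the peak kept.

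The liver P0 input list covered 1.32% of the *Apoa1*, *Apoc3*, *Apoa4* and *Apoa5* window, and the liver P0 H3K27ac list 26.5% of it. Of the 24 input lists, 2 had a peak in that window, and 1 had a peak in each of the other 3 windows.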

How the results depend on the processing

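Over 15 results and 285 alternatives, 242 kept their direction and side of the threshold, 20 turned round, 10 no longer passed the test, 5 newly passed it, and 8 shares of bins moved by over 1.5 times. Some of the 242 could not have changed. In *Apob* all heart and forebrain lists were at 0, so liver minus the other tissues was 10.4 whichever replicate was used. The count of 242 is therefore no measure of robustness. Values are percentage points, with exact permutation tests, unless another unit is named, and the cause was not tested.

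Liver minus the other tissues passed the test in the *Apoa1* cluster, *Apob* and *Apoa2* windows. Against heart within 1 library series it was 26.5, 8.42 and 27.1, and 18.5, 4.88 and 16.5 without P21. There the smallest possible p was 0.0625, or 0.125 without P21, so no difference could pass. These comparisons are counted among those that no longer passed. Liver minus the other tissues also did not pass for the rank percentile of the best peak in the *Apoa1* cluster (4.41) and *Apoa2* (8.32). Nor did it pass in *Apoa2* with peaks trimmed to 1 kb (0.950) or for the number of peaks (0.429 peaks). In the *Apoe* and *Apoc1* window it newly passed at equal list lengths (10.6, and 11.7 without the heart P21 list) and turned round with trimmed peaks (-1.52), without P21 (-1.16), for the number of peaks (-1.07 peaks) and within the series without P21 (-8.32).

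Postnatal minus prenatal liver turned round in the *Apoe* and *Apoc1* window with trimmed peaks (-0.341), without P21 (-1.83), for the number of peaks (-0.25 peaks) and for the share of covered sequence (-15.8 ppm). In *Apoa2* it turned round with trimmed peaks (-0.415) and for the number of peaks (-0.167 peaks), and passed the test for the share of covered sequence (78.8 ppm). Its difference between liver and heart turned round in the *Apoe* window at equal lengths without the heart P21 list (-11.2) and without P21 or that list (-5.59), and in *Apoa2* with trimmed peaks (-1.24) and for the number of peaks (-0.667 peaks).

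Forebrain minus heart in the *Apoe* window passed the test without P21 or the heart P21 list (-8.48) and turned round at equal lengths (1.01, but -1.26 without the heart P21 list), for the rank percentile (8.65) and for the share of covered sequence (10.002 ppm). Member bins called higher in liver, 42.9% of those tested against 7.87% of all bins, were 8.33% against 8.73% at equal lengths (24% against 8.86% without the heart P21 list), 11.1% against 2.09% without P21, 7.14% against 0.674% by rank percentile, 24.5% against 3.55% in bins of 5 kb, and 0% of members and of all with trimmed peaks, by number of peaks and by presence per element. Those 3 settings of 0 had 6 of 27, 9 of 28 and 3 of 19 members at an unadjusted p under 0.05. All bins or elements gave 7826 of 88460, 9290 of 95736 and 6196 of 85254 in that order, with liver higher in each count.

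With the replicate number as a block, a replicate block fit of forebrain P56 minus E11.5 in the *Apoe* window gave 13.7 (exact permutation p = 0.5, the smallest possible), and the numbers are not known to pair the samples. Leaving out each replicate in turn gave 13.1 to 14.3 there.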
